A study of Rattus norvegicus with 10 samples.

Results

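Lymphatic endothelial nuclei, the nuclei of cells that line the vessels draining fluid from heart muscle, were picked out of single-nucleus profiles of injured rat hearts. The region profiled was the area at risk (AAR), the muscle cut off from blood by a coronary ligature and then reperfused. A nucleus was a member if it held at least 500 UMIs (unique molecular identifiers, 1 per captured transcript) and at least 4 UMIs of Prox1, Mmrn1, Reln and Flt4 together with at least 2 of these genes detected. It could hold at most 1 UMI of Ptprc, Pdgfra and Rgs5, which mark leukocytes, fibroblasts and pericytes. The rule found 229 members among 22037 nuclei, 113 of 11540 in the vehicle library and 116 of 10497 in the BT2 library. Both nuclear groups were rats subjected to ischaemia and reperfusion injury (M/IR) and sampled at 24 h, with 1 library from animals given vehicle and 1 from animals given BT2 at 100 mg/kg. BT2 is a code-named compound. Tissue RNA of the AAR was sequenced as polyA-selected libraries from M/IR rats given vehicle or BT2 at 4 h and at 24 h, 2 libraries in each of the 4 groups, at a BT2 dose that the labels do not state. No uninjured hearts were among the samples. The strain, sex and age of the rats and the number of animals per library were not given in the sources used here. Hours run from ligation in the titles of the samples, and from M/IR in the series text.

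Cardiac lymphatic vessels return interstitial fluid, macromolecules and immune cells from the myocardium to lymph nodes. Their endothelium is set up by the transcription factor Prox1, which venous endothelial cells switch on under the control of Sox18 and Nr2f2. It grows in response to Vegfc and Figf (the rat symbol of VEGF-D), ligands that act through the receptor Flt4 (VEGFR-3) with Nrp2 as a co-receptor. Initial lymphatic vessels carry the hyaluronan receptor Lyve1 and release Ccl21, the chemokine that attracts Ccr7-bearing dendritic cells. After myocardial infarction the cardiac lymphatic network is known to remodel.

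Promoter windows are shown for 3 genes, the rule gene Mmrn1 and, outside the rule, Ccl21 and Lyve1 of the initial vessels, since endothelial genes are commonly driven by ETS-family factors. Each window is the 250 bases before the RefSeq start on build GRCr8, written 5′ to 3′ on the strand of the gene. Capitals mark exact matches to CAGGAA or, on the other strand, TTCCTG, a single form of ETS site called the ETS core here. Other forms of ETS site were not searched, so unmarked bases can hold them. Mmrn1 (chr4:91233166-91233415, + strand) has 3 matches, from -224 to -219, -110 to -105 and -97 to -92 before the start.
Mmrn1: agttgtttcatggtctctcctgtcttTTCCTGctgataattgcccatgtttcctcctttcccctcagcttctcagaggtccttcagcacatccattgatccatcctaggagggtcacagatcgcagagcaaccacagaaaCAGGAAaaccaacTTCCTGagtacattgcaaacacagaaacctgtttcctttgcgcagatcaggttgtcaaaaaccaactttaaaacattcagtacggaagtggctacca
Ccl21 (chr5:61777516-61777765, - strand) has 1 match, from -97 to -92, and Lyve1 (chr1:174410978-174411227, - strand) has 1, from -44 to -39.
Ccl21: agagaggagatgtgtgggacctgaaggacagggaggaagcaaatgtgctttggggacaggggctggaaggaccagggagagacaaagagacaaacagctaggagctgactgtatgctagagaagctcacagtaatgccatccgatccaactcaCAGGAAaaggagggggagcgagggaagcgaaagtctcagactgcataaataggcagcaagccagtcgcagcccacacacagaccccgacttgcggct
Lyve1: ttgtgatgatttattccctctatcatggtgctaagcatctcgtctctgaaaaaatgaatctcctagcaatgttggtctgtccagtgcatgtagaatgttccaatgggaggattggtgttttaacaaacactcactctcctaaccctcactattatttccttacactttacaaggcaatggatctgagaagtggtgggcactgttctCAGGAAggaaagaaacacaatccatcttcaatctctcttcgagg
Of the 26 genes formed by the 4 rule genes and 22 lymphatic identity genes, 19 matched a RefSeq window by symbol. With a gene counted if any of its windows held the motif, the ETS core was in 8 of these 19 genes (42.1%), against 7208 of 27457 genes in the table (26.25%). The 3 genes shown are among these 8. Of the other rule genes, Reln and Flt4 had a window without a match, and Prox1 had no window. The SOX core AACAAT, or ATTGTT on the other strand, was in 0 of 19, against 3071 of 27457 (11.2%). The motifs do not overlap each other in letters, and a match is a description of the sequence only.

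Members were of ordinary depth. Their median UMI count was 2875 in vehicle and 2286 with BT2, against 2449 and 2137 over all nuclei, and their sums were 421651 and 362920 UMIs. Of 37 barcodes that the libraries shared, 0 belonged to members. The libraries differed in nuclei that carried the rule genes and were barred by Ptprc, Pdgfra or Rgs5. There were 122 of these in vehicle, with a median of 34990 UMIs and a highest count of 131123, and 25 with BT2, with a median of 5881. In vehicle 94 of the 122 held at least 2 of the 3 barred genes, and these barcodes held 27.6% of the library's Reln UMIs, against 6.32% with BT2. A second point concerns the members themselves: 9 in vehicle and 7 with BT2 had at least 2% of their UMIs in the cardiomyocyte genes Ttn, Ryr2, Myh6 and Mybpc3. These held 14.1% and 21.0% of member UMIs, and their median of rule UMIs was 5 and 6. No doublet caller was run. For the genes on which the comparison of libraries turns, the ratio without these nuclei is given beside the ratio over all members. Tissue libraries held from 10397310 to 24480984 counts.

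Reln, the secreted glycoprotein reelin, carried most of the selection. It was detected in 98.2% of vehicle and 98.3% of BT2 members, with a median of 12 and 10 UMIs per nucleus, and summed to 2223 and 1744 UMIs. Flt4, the receptor of VEGF-C, gave 385 and 322 UMIs, Mmrn1 (multimerin-1, an endothelial matrix protein) 351 and 242, and Prox1 332 and 359. These values chose the members and are a description only. The median member held 21 rule UMIs in vehicle and 18 with BT2, and all 4 genes were detected in 60 and 51 nuclei. At the threshold, 9 and 7 members had exactly 4 rule UMIs, and 13 and 11 nuclei with 3 UMIs stayed outside. Lyve1, which the rule did not use, was present in 0 of 13 and 1 of 11 nuclei just outside. It was present in 11 of 31 and 5 of 28 members with 4 to 9 rule UMIs, and in 64 of 82 and 43 of 88 members with at least 10.

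The label was checked with 22 lymphatic identity genes outside the rule. The median member had 8 of them detected in vehicle and 7.5 with BT2, and 7 of 12 pan-endothelial markers in both libraries. In the 9 and 7 members with at least 2% cardiomyocyte UMIs, the medians were 6 and 7 identity genes. Their medians of pan-endothelial markers were 3 in vehicle and 8 with BT2. Such medians were not computed for blood endothelial nuclei. Of the 22 genes 20 were detected. Stab2 and Thy1 were at 0 UMIs, and Sox18, the factor upstream of Prox1, had 0 UMIs in vehicle and 1 with BT2. The identity genes summed to 10957 CPM (the usual depth-scaled unit, here per class sum of UMIs) in vehicle and 9765 with BT2, against 1774 and 1918 in blood endothelial nuclei. Blood endothelial nuclei are 2043 and 1820 nuclei with Cdh5, Pecam1, Flt1 and Vwf transcripts, chosen by a like rule and with at most 1 UMI of the 4 lymphatic rule genes. Gata2, an endothelial transcription factor, was at 35.6 and 33.1 CPM against 87.9 and 75.5 in blood endothelial nuclei, and Hoxd8 had 4 UMIs and 1 UMI. The summed identity level was thus above that of blood endothelial nuclei, while Sox18, Stab2, Thy1, Gata2 and Hoxd8 were low or not detected.

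Some lymphatic genes had most of their UMIs in these nuclei and others had most of them elsewhere. Members are about 1% of nuclei (0.979% and 1.11%), yet held 79.4% of all Tbx1 UMIs in vehicle and 73.0% with BT2. They held 55.9% and 85.1% of Ccl21 and 51.0% and 48.9% of Sema3a, which encodes a repulsive guidance cue. Ackr2, a scavenger of inflammatory chemokines, had 48.3% and 37.8% of its UMIs in members. For the rule genes the share in members follows from the selection and is a description: it was 65.1% and 76.8% for Mmrn1 and 54.6% and 58.9% for Reln. Prox1, also a rule gene, was split between members, with 33.9% and 45.3%, and cardiomyocyte nuclei, with 27.0% and 21.9%. In contrast, members held 10.4% and 13.3% of Lyve1, 4.26% and 4.12% of Pdpn and 0.236% and 0.523% of Mrc1. Of Lyve1, 85.6% and 76.9% lay outside the lymphatic, blood endothelial, fibroblast and cardiomyocyte nuclei counted here. In tissue RNA, fewer cells of a type and less RNA per cell cannot be told apart, and members held a small share of Lyve1, Pdpn and Mrc1 among nuclei.

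**Figure D1:**
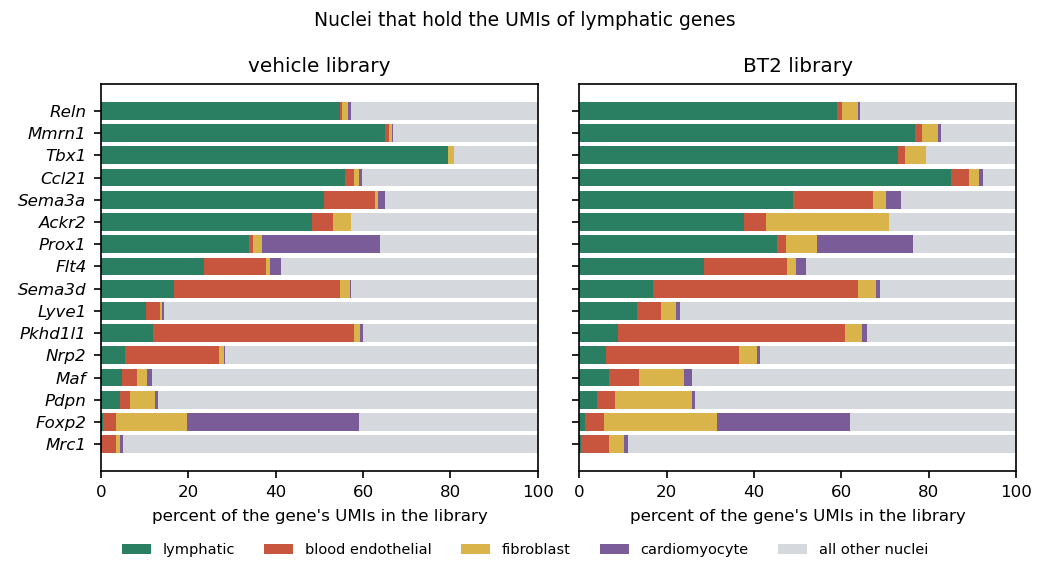
Share of each gene's UMIs (x axis, percent of the library's UMIs of that gene) held by lymphatic, blood endothelial, fibroblast, cardiomyocyte and all other nuclei, for the vehicle and the BT2 library. Tbx1, Ccl21 and the rule gene Mmrn1 lie mostly in lymphatic nuclei in both libraries, whereas Lyve1, Maf, Pdpn and Mrc1 lie mostly in other nuclei.

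Set against blood endothelial nuclei, 815 of 13187 genes (6.18%) were at least 2-fold higher in members in both libraries and 1231 (9.33%) at least 2-fold lower. This is a description, since both classes were chosen on these nuclei. Among the higher genes were 9 of 12 cardiomyocyte markers. The number of higher genes was 614 without the cardiomyocyte-rich members and 605 with Prox1 not counted in the rule. Of 19 identity genes with enough UMIs, 12 were on the higher side in both libraries and 2 on the lower. Ccl21 stood at 543 CPM in vehicle and 741 with BT2, against 1.39 and 2.49 CPM in blood endothelial nuclei, a ratio of 392 (95% counting interval 196 to 919) and 298 (171 to 566). Lyve1 stood at 576 and 388 CPM against 12.3 and 11.3. For Tbx1, a T-box factor needed for lymphatic growth, 54 and 46 UMIs in members faced 0 and 1 in blood endothelial nuclei, and the 95% counting interval of the vehicle ratio started at 194. Maf, a transcription factor of lymphatic endothelium, was at 745 and 623 CPM against 38.4 and 44.3.

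Guidance and secreted genes were among the genes higher in members. Sema3a stood at 3683 and 2970 CPM against 61.3 and 77.4, and Sema3d, a second class 3 semaphorin, at 908 and 816 CPM against 151 and 158. Unc5b, a netrin receptor usually counted among blood endothelial markers, was higher in members, at 678 and 570 CPM against 61.5 and 85.5. The other genes with the largest ratios included Fam205a (1350 and 685), Sh3gl3 (580 and 489), the Notch regulator Dtx1 (507 and 364), the glutamate receptor subunit Grin2b (390 and 128), the heparan sulfate sulfotransferase Hs6st3 (201 and 112) and the atypical protein kinase C gene Prkcz (88.0 and 195). Fam205a, for instance, had 197 and 143 UMIs in members and 2 and 3 in the much larger blood endothelial class. Il7, a cytokine that lymphatic endothelium supplies to lymphocytes, was low but showed the same direction, at 28.5 and 30.3 CPM against 0.692 and 1.15.

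Other transcripts of blood endothelial nuclei were not detected in members. In all, 71 genes with at least 20 UMIs in each blood endothelial class had 0 in members of both libraries. The blood endothelial class held 5776867 and 5217443 UMIs in all, far more than the members, so for the scarcer of the 71 genes a count of 0 does not show a lower level. Tbx3, a T-box repressor, had 215 and 154 UMIs there, and the 95% counting interval of the ratio of members to blood endothelial nuclei ended at 0.237 and 0.349. For the Wnt antagonist Dkk2, with 69 and 198 UMIs, it ended at 0.752 and 0.270, and for the peptidase gene Dpp4, with 73 and 66, at 0.710 and 0.826. Flt1, the VEGF-A receptor used to choose the blood endothelial class, was at 225 and 190 CPM against 1981 and 1848.

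**Figure D2:**
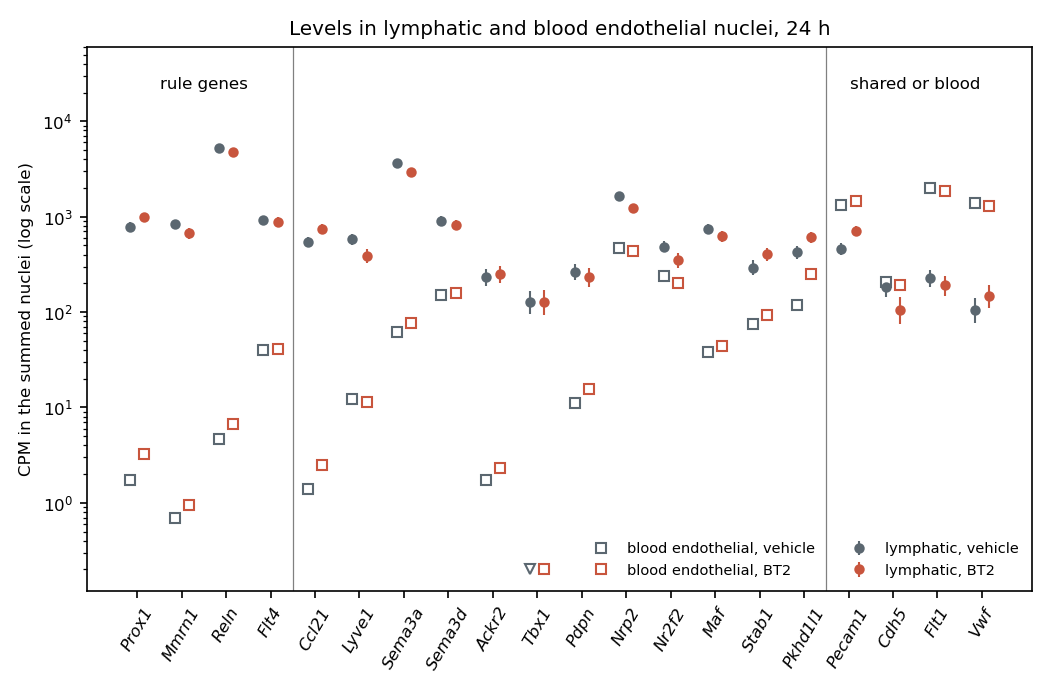
CPM (y axis, log scale) of rule genes, lymphatic identity genes and shared or blood endothelial genes in lymphatic nuclei (filled circles, bars are 95% counting intervals) and blood endothelial nuclei (open squares) of the vehicle and BT2 libraries, with an open triangle for 0 UMIs drawn at the lower edge. Every identity gene shown is above the blood endothelial level in both libraries, by 392-fold and 298-fold for Ccl21 and by 2.06-fold and 1.73-fold for Nr2f2. Only part of the 22 identity genes is shown. Among those left out, Gata2 was lower in members than in blood endothelial nuclei, and Stab2 and Thy1 had 0 UMIs in members.

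Within the VEGF-C axis, some receptors were higher in members than in blood endothelial nuclei, and members had little of the ligands. Of 18 VEGF-C and angiopoietin genes compared, 3 were at least 2-fold higher in members in both libraries and 8 lower. Over all genes, 6.18% were higher and 9.33% lower. The list summed to 5768 and 5420 CPM in members, against 9887 and 9012 in blood endothelial nuclei. With nuclei thinned to equal depth, Nrp1 was detected in 21.1% and 16.2% of members, against 54.9% and 53.5% of blood endothelial nuclei. Kdr (VEGFR-2) stood at 266 and 287 CPM against 153 and 137 in blood endothelial nuclei, and Nrp2 at 1653 and 1243 against 469 and 434. Vegfc was at 38.0 and 46.8 CPM in members (8 of 113 and 7 of 116 nuclei), against 370 and 363 in blood endothelial and 215 and 175 in fibroblast nuclei. Figf was at 7.12 and 11.02 CPM in members and 279 and 211 in fibroblast nuclei. Ccbe1, which with the protease Adamts3 activates VEGF-C, was at 287 and 267 CPM in members (10 of 113 and 14 of 116 nuclei). In fibroblast nuclei it was at 1890 and 1971 CPM. At equal depth the levels were 64.2 and 229 CPM in members and 1870 and 1537 in fibroblast nuclei. Adamts3 itself had 0 UMIs and 1 UMI in members. In both libraries Vegfc was thus higher in blood endothelial and fibroblast nuclei, Figf and Ccbe1 were higher in fibroblast nuclei, and the receptors Kdr and Nrp2 were higher in members than in blood endothelial nuclei.

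Angiopoietin genes set the members apart in another way. Tek, the angiopoietin receptor, was lower than in blood endothelial nuclei, at 342 and 424 CPM against 1030 and 900. Its ligand Angpt2 was higher in members, at 375 CPM in vehicle against 41.0 in blood endothelial nuclei, a ratio of 9.13 (7.42 to 11.2). With BT2 the values were 121 and 47.1 CPM, a ratio of 2.57 (1.82 to 3.56). Angpt2 is the gene of this axis that differed most between the libraries and is described below with the treatment.

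Collecting-vessel and valve genes were mixed, and 13 of them had at least 20 UMIs in members. Of 16 compared with blood endothelial nuclei, 5 were at least 2-fold higher in both libraries and 4 lower, beside 6.18% and 9.33% of all genes. Of 18 listed, 15 were detected, and Foxc2 (the valve master factor), Gja4 and Cldn11 had 0 UMIs in members of both libraries. Counting error alone allows up to 3 UMIs for each. Itga9, the integrin of valve leaflets, was at 85.4 CPM in both libraries, Gja1 at 311 and 292, and the mechanosensitive channel Piezo2 at 567 and 502. Among junction genes Ptprm, a receptor phosphatase of adherens junctions, was at 2578 and 2284 CPM, 0.553 and 0.496 times the blood endothelial level. Lama4, a laminin chain of the endothelial basement membrane, was at 1143 and 998 CPM and was 2.19 and 1.66 times the blood endothelial level.

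Fibroblast, macrophage and lymphocyte markers summed to less in members than over all nuclei of each library. Endocardial markers summed to 844.3 CPM in vehicle and 1033 with BT2 in members, against 632.2 and 864.4 over all nuclei. In blood endothelial nuclei they summed to 1764 and 2504 CPM. Schwann cell markers were at 54.55 and 19.29 CPM in members, against 47.88 and 96.43 over all nuclei. Pericyte and smooth muscle markers were at 147 and 352.7 CPM, against 997.8 and 1241. The 12 cardiomyocyte markers summed to 11360 CPM in vehicle and 14204 with BT2 in members, against 2693 and 2943 in blood endothelial and 85377 and 93843 in cardiomyocyte nuclei. Without the cardiomyocyte-rich members the sums were 659.6 and 746.5 CPM, and Ttn, the giant sarcomere protein, had a ratio of BT2 over vehicle of 1.11 in place of 1.36. Fibroblast markers summed to 1160 and 699.9 CPM, against 578.7 and 1088 in blood endothelial and 7440 and 8331 in fibroblast nuclei. Dcn had 7 and 3 UMIs in members. Macrophage markers summed to 209 and 204 CPM, with Csf1r at 4 UMIs and 1 UMI and C1qb at 0, and 7 of 11 lymphocyte markers were at 0 in members.

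The comparison of libraries asked how lymphatic nuclei differed between BT2 and vehicle at 24 h. Members were 0.979% of nuclei in vehicle (exact Clopper-Pearson interval 0.808% to 1.18%) and 1.11% with BT2 (0.914% to 1.32%), a ratio of 1.13 (0.863 to 1.48). The shares were 0.901% and 1.04% without the cardiomyocyte-rich members. Among lymphatic and blood endothelial nuclei they were 5.24% (4.34% to 6.27%) and 5.99% (4.98% to 7.14%). The intervals overlap, so a difference in share was not detectable at this depth. With 1 library per group there is no replicate, no test was made, and all intervals cover counting error only. The UMIs that the barred barcodes hold differ between the libraries as given above, and their part in the share was not tested.

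Members gave at least 20 UMIs for 6069 genes. At least 2-fold higher with BT2 were 262 of them (4.32%), and 305 (5.03%) were at least 2-fold lower. Without the cardiomyocyte-rich members the counts were 195 (3.6%) and 284 (5.24%) of 5417. Of 18 identity genes 1 was at least 2-fold higher and 0 lower, with a median log2 ratio of -0.17. None of 13 valve, 12 junction or 15 reelin and matrix genes passed 2-fold with all members counted. In the VEGF-C axis 1 of 12 did, and that was Angpt2. Without the cardiomyocyte-rich members 0 of 17 identity genes were 2-fold higher and 1 was lower, Tfpi (an inhibitor of coagulation, 0.446), and of 15 reelin and matrix genes 1 was lower, Tgfb2 (a TGF-beta ligand, 0.398).

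Angpt2, an angiopoietin that in lymphatic vessels takes part in remodelling and valve formation, had 158 UMIs in vehicle members and 44 with BT2. This is 375 CPM against 121 CPM, a ratio of 0.324 (95% counting interval 0.226 to 0.454), and 0.336 (0.233 to 0.475) without the cardiomyocyte-rich members. The transcript was in 37 of 113 and 18 of 116 members, with 18 and 8 UMIs in the richest nucleus, and the ratio was 0.297 (0.2 to 0.431) without the richest nucleus of each library. After thinning each nucleus to 1000 UMIs, which left out 4 and 11 members, it was detected in 23.9% (16.2% to 33.0%) of vehicle and 7.62% (3.35% to 14.5%) of BT2 members. The background share in cardiomyocyte nuclei thinned alike was 0% of 487 and 0.387% of 517, where median depth before thinning was 6434 and 3165 UMIs. Blood endothelial nuclei of the same libraries gave 3.25% and 2.85% and a CPM ratio of 1.15 (0.958 to 1.38). Vehicle members therefore had more Angpt2 than BT2 members beyond counting error, and members held 16.6% of the library's Angpt2 in vehicle and 5.83% with BT2.

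Lyve1 and Ccl21, the surface receptor and the chemokine of initial vessels, stood differently. Lyve1 had 243 and 141 UMIs, or 576 and 388 CPM, a ratio of 0.674 (0.544 to 0.833), and 0.726 (0.585 to 0.898) without the cardiomyocyte-rich members. It was detected in 66.4% of vehicle and 41.4% of BT2 members, and in 36.7% (27.7% to 46.5%) and 25.7% (17.7% to 35.2%) after thinning. The thinned background was 1.18% and 1.23% of blood endothelial nuclei, whose median depth was 2436 and 2388 UMIs. Once depth was equal the intervals of detection overlapped, although the summed level remained lower with BT2. Ccl21 had 229 and 269 UMIs, a ratio of 1.36 (1.14 to 1.64), and 1.56 (1.30 to 1.87) without the cardiomyocyte-rich members. A single BT2 nucleus held 81 of the 269 UMIs (30.1%), and the ratio was 1.03 (0.84 to 1.25) without the richest nucleus of each library.

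Among the other identity genes, Sema3a was at 3683 and 2970 CPM (ratio 0.806, interval 0.746 to 0.872), Nrp2 at 1653 and 1243 (0.752) and Nr2f2, the venous and lymphatic nuclear receptor, at 486 and 347 (0.714). These ratios were 0.876, 0.820 and 0.739 without the cardiomyocyte-rich members. Pkhd1l1, a large membrane protein, was higher with BT2, at 609 CPM against 422 (1.44, 1.18 to 1.77, and 1.58 without the cardiomyocyte-rich members), and its ratio in blood endothelial nuclei was 2.11 (1.93 to 2.32). Tbx1 was at 128 and 127 CPM, a ratio of 0.99 (0.653 to 1.49). Pdpn was at 266 and 232 CPM, with a ratio of 0.871 (0.649 to 1.17) whose interval includes 1. The ratios of Tbx1 and Pdpn were 1.05 and 0.957 without the cardiomyocyte-rich members. Foxp2 was the 1 identity gene past 2-fold, at 28 and 73 UMIs (3.03, 1.94 to 4.87), but 20 of its 28 vehicle UMIs lay in 1 nucleus and it was seen in 7 and 13 members. Its interval included 1 without the cardiomyocyte-rich members (3.16, 0.911 to 13.8).

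Ratios of junction and surface genes lay on both sides of 1. Of 12 junction genes 8 were above 1 and 4 below, and 0 passed 2-fold. Pecam1, the adhesion molecule CD31, was at 460 CPM in vehicle and 703 with BT2 (1.53, 1.26 to 1.85), while its ratio in blood endothelial nuclei was 1.10 (1.07 to 1.14). Cdh5, VE-cadherin of adherens junctions, was at 183 and 105 CPM (0.573, 0.378 to 0.856), with a blood endothelial ratio of 0.934. Cdh5 was detected in 38.9% and 23.3% of members, and in 13.8% and 13.3% after thinning, when its level was 165 and 152 CPM. The gap in Cdh5 was thus small at equal depth, and no difference is read from it. Ackr3, a scavenger receptor for Cxcl12 and adrenomedullin, was at 168 and 289 CPM (1.72, 1.26 to 2.36), against a blood endothelial ratio of 0.733 (0.659 to 0.815). Cd200, an inhibitory ligand for myeloid cells, was at 140 and 77.2 CPM (0.551, 0.339 to 0.878). Without the cardiomyocyte-rich members the ratios were 1.60 for Pecam1, 0.615 for Cdh5, 1.90 for Ackr3 and 0.523 for Cd200. Each interval still excluded 1, but the intervals treat UMIs as independent and do not cover the spread between nuclei. Pecam1 was detected in 75 of 113 vehicle and 74 of 116 BT2 members, Ackr3 in 32 and 33, and Cd200 in 31 and 17. For Cdh5 the value after thinning, given above, still holds.

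Immediate early and metabolic genes were thinly counted. Fos had 26 UMIs in 19 vehicle members and 5 UMIs in 5 BT2 members (ratio 0.223, 0.067 to 0.591), and Fosb 17 and 2 UMIs, whereas Junb had 18 and 31. The blood endothelial ratios were 0.69 for Fos, 0.599 for Fosb and 1.59 for Junb, on the same sides of 1. Pparg, the fatty acid sensor, had 12 UMIs in 7 nuclei and 31 in 18 (3.0, 1.5 to 6.42), with a blood endothelial ratio of 0.964. Without the cardiomyocyte-rich members the ratios were 0.194 for Fos, 0.149 for Fosb, 1.97 for Junb and 3.67 for Pparg. Selp, P-selectin, had 47 and 9 UMIs, of which 22 in 1 vehicle nucleus. After thinning its direction reversed (1.56), so no difference is read from it.

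The genes with the largest and smallest ratios over all genes were thinly counted, and several had most of their UMIs in a few nuclei. Unc5c, a netrin receptor, had 8 and 43 UMIs in 7 and 19 members, with 18 UMIs in 1 of them (6.25, 2.90 to 15.4, and 5.37 without the cardiomyocyte-rich members). Meis1, a homeobox factor, had 14 UMIs in 9 vehicle and 45 UMIs in 17 BT2 members (3.73, and 2.65 without the cardiomyocyte-rich members). Dgki, a diacylglycerol kinase, had 20 UMIs in 14 and 63 UMIs in 17 members (3.66, and 1.03 without the cardiomyocyte-rich members). Other genes that the naming rule took had smaller ratios spread over more nuclei. Dtx1, a regulator of Notch signalling, had 37 UMIs in 22 vehicle and 76 UMIs in 36 BT2 members (2.39, 1.59 to 3.64, and 2.56 without the cardiomyocyte-rich members), with 3 and 9 in the richest nucleus. Abcc9, a potassium channel subunit better known from pericytes, had 41 and 97 UMIs (2.75, and 4.03 without cardiomyocyte-rich members) and a blood endothelial ratio of 1.94. Tmlhe, of carnitine synthesis, had 19 UMIs in 13 and 48 UMIs in 35 members (2.94, and 3.54 without cardiomyocyte-rich members), with a blood endothelial ratio of 2.12. The ratios of Kcnd2 (17.9) and Rhbdl3 (44.1) were 1.77 and 1.26 without cardiomyocyte-rich members, and that of Corin moved from 0.148 to 1.26. In vehicle, 126 UMIs of Nrxn3 lay in 6 nuclei, and all 97 UMIs of Reg3b and 50 of Reg3g lay in 1 nucleus.

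**Figure D3:**
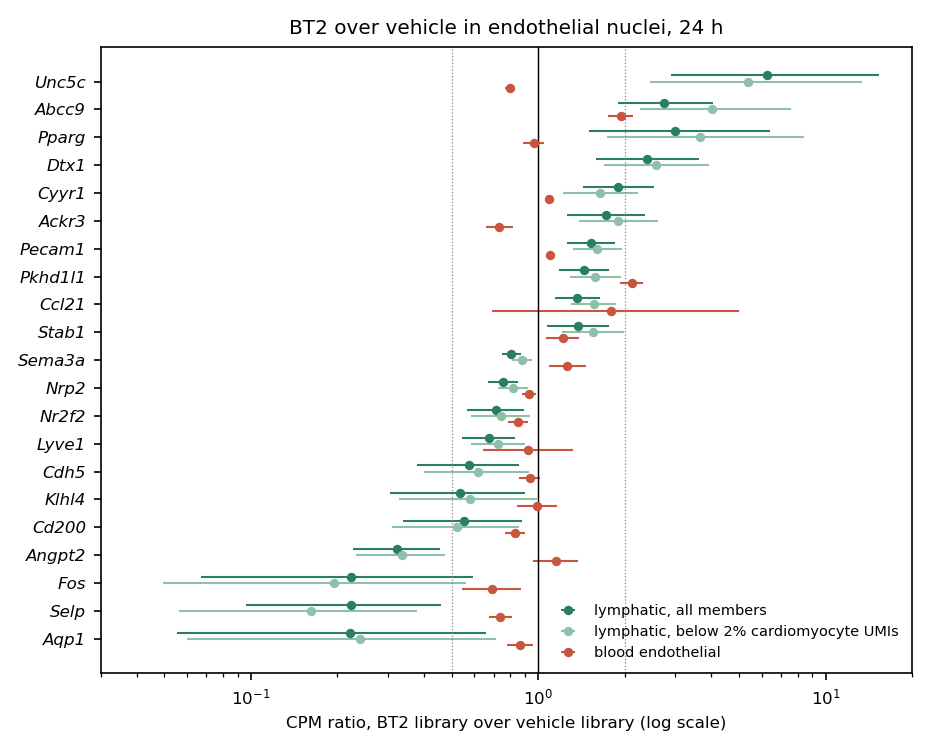
CPM ratio of BT2 over vehicle (x axis, log scale, dotted lines at 0.5 and 2) in all lymphatic nuclei, in lymphatic nuclei below 2% cardiomyocyte UMIs and in blood endothelial nuclei, with 95% counting intervals (the blood ratio is left out below 20 UMIs). Angpt2 is at 0.324 in lymphatic and 1.15 in blood endothelial nuclei, and Pecam1, Ackr3 and Pparg are above 1 in lymphatic nuclei.

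Whole-tissue libraries gave a replicated view of the same genes. At 24 h, 6016 of 15216 genes (39.5%) passed in edgeR. With BT2, 2873 (18.9%) were up and 3143 (20.7%) down. Of the 26 rule and identity genes 25 could be tested, since Stab2 was too low. Of these, 9 rose and 4 fell, 12 missed the threshold, and the median log2 fold change was 0.34 against -0.01 over all genes. The 13 of 25 stand beside 39.5% of all genes, and nothing particular to the list is read from them. Nothing in the labels says that the 2 libraries of a group are separate animals, so p-values measure the spread between these samples.

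Prox1 rose most clearly of the rule genes. Its level in CPM (library counts scaled by depth with TMM factors) at 24 h was 19.0 and 23.3 in vehicle libraries against 55.9 and 49.99 in BT2 libraries, a log2 fold change of 1.33 ± 0.16 (SE, n = 2 per group, edgeR adjusted p = 0.000988). Cardiomyocyte nuclei held 27.0% and 21.9% of Prox1 UMIs, and 10 of 12 cardiomyocyte markers rose in the same tissue comparison, beside 18.9% of all genes. Their part in the Prox1 value was not tested. Mmrn1 was at 10.5 and 9.12 CPM in vehicle and 16.1 and 16.2 with BT2 (0.71 ± 0.20, edgeR adjusted p = 0.0216). Reln (0.34, edgeR adjusted p = 0.427) and Flt4 (-0.34, adjusted p = 0.255) did not pass. Flt4 was at 29.6 and 22.4 CPM in vehicle and 19.0 and 21.98 with BT2.

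Genes with a large share of their UMIs in lymphatic nuclei passed in part. Tbx1, with 79.4% and 73.0% in members, was at 1.15 and 0.746 CPM in vehicle and 1.54 and 1.67 with BT2 at 24 h and did not pass (0.75 ± 0.35, edgeR adjusted p = 0.118). Ccl21, Sema3a and Ackr2 rose. Ccl21 was at 41.0 and 34.8 CPM in vehicle and 66.9 and 60.6 with BT2 (0.75 ± 0.22, edgeR adjusted p = 0.0299), and Sema3a at 5.38 and 4.68 against 7.91 and 8.56 (0.71 ± 0.16, adjusted p = 0.0107). Ackr2 was at 4.69 and 2.24 CPM against 11.03 and 15.3 (1.91 ± 0.47, edgeR adjusted p = 0.0157). The groups did not overlap in any of these 4 genes. Nor did they in genes that did not pass, such as Lyve1 and Sox18 (edgeR adjusted p = 0.734 and 0.675). The share of all genes without overlap was not computed, so nothing is read from it. The calls were not stable to single libraries: in the 4 fits without 1 library of that time, Mmrn1 and Ccl21 passed in 0 (adjusted p from 0.0609 to 0.129 and from 0.0691 to 0.16). Ackr2 and Sema3a passed in 2 and were lost without vehicle replicate 2 and without BT2 replicate 2, whereas Prox1 passed in 4. Ackr2 was also lost without the filter on low counts (edgeR adjusted p = 0.0940).

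Genes held mostly by other nuclei made up the remaining calls. Pkhd1l1, with 45.9% and 52.0% of its UMIs in blood endothelial nuclei, was at 4.20 and 4.64 CPM in vehicle and 39.1 and 22.1 with BT2 (2.79 ± 0.32, edgeR adjusted p = 0.000983). Foxp2 (1.08), Gata2 (0.83) and Tfpi (0.44) also rose. Pdpn fell from 137 and 131 to 26.0 and 53.8 CPM (-1.74 ± 0.41, edgeR adjusted p = 0.0159), as did Maf (-1.11), Mrc1 (-1.04) and Thy1 (-0.74). Of 11 macrophage markers 7 fell and 1 rose, beside 20.7% and 18.9% of all genes. Lyve1 was at 75.9 and 75.7 CPM in vehicle and 68.2 and 72.0 with BT2 (-0.11, edgeR adjusted p = 0.734). The difference did not pass. In the 4 fits without 1 library, Pkhd1l1, Foxp2, Gata2 and Maf passed in 4, Mrc1 in 2, Pdpn and Thy1 in 1 and Tfpi in 0. Mrc1 was lost without vehicle replicate 1 and without BT2 replicate 1, and Pdpn and Thy1 passed only without BT2 replicate 2. Without the filter on low counts Pdpn and Mrc1 were lost too (edgeR adjusted p = 0.0894 and 0.0883).

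At 4 h fewer genes passed than at 24 h, among all genes and among the lymphatic genes. In edgeR 2495 of 15216 genes (16.4%) passed, of which 1015 (6.67%) were up and 1480 (9.73%) down, a split that was 1298 up of 2542 with upper quartile scaling. Of the 25 lymphatic genes 1 rose, 4 fell and 20 missed the threshold, and their median was -0.26 against 0.00 over all genes. The 5 of 25 stand beside 16.4% of all genes, and nothing particular to the list is read from them. Mmrn1 fell from 17.3 and 25.3 to 8.41 and 10.3 CPM (-1.19 ± 0.21, edgeR adjusted p = 0.0132), and Ccl21 from 46.8 and 50.1 to 30.6 and 17.6 (-1.02 ± 0.23, adjusted p = 0.0265). Nrp2 fell from 53.9 and 51.9 to 31.9 and 29.6 CPM (-0.78, edgeR adjusted p = 0.0134), and Pdpn was at the threshold (-1.54, adjusted p = 0.04995). Prox1 was the gene that rose, from 14.9 and 11.9 to 19.0 and 22.2 CPM (0.64 ± 0.17, edgeR adjusted p = 0.0382). Mmrn1, Ccl21 and Nrp2 lost their calls without vehicle replicate 2 and without BT2 replicate 2 at 4 h, Pdpn passed only without BT2 replicate 1 and Prox1 only without vehicle replicate 1. Fitted on the 4 h libraries alone, Ccl21, Prox1 and Pdpn were lost (edgeR adjusted p = 0.0746, 0.0914 and 0.0694).

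Of 20 VEGF-C and angiopoietin genes, 3 rose and 6 fell at 4 h, beside 6.67% and 9.73% of all genes. At 24 h 2 rose and 0 fell, beside 18.9% and 20.7%. In edgeR 3 of the 20 had an unadjusted p under 0.05, beside 7452 of all 15216 genes. The difference between times was not tested for the list. Vegfc fell from 11.3 and 10.02 to 4.36 and 6.04 CPM (-1.02, edgeR adjusted p = 0.0394) and Adamts3 from 14.6 and 10.2 to 5.95 and 2.88 (-1.51, adjusted p = 0.0270). Ccbe1 rose from 0.653 and 1.75 to 3.25 and 5.64 CPM (1.81, edgeR adjusted p = 0.0265). Angpt2 fell at 4 h from 66.2 and 55.8 to 34.3 and 20.4 CPM (-1.16 ± 0.30, edgeR adjusted p = 0.0382). At 24 h, the time of the nuclei, it was at 12.9 and 10.9 CPM in vehicle and 8.45 and 14.4 with BT2 (-0.06, edgeR adjusted p = 0.898), and the groups overlapped. The lower Angpt2 of lymphatic nuclei with BT2 was thus not matched by a call in whole tissue at 24 h, and members held 16.6% and 5.83% of the transcript in the nuclear libraries. Angpt1, the agonist of Tek, rose at both times (0.86 and 1.65, edgeR adjusted p = 0.0260 and 0.000924). At 4 h none of these 5 calls was stable to single libraries. In 4 fits without 1 library each, added after seeing the data, Vegfc passed in 0 (edgeR adjusted p from 0.0964 to 0.144), Angpt1 in 0 (0.0566 to 0.134), and Angpt2, Ccbe1 and Adamts3 only without BT2 replicate 1, while Angpt1 passed in 4 at 24 h.

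**Figure D4:**
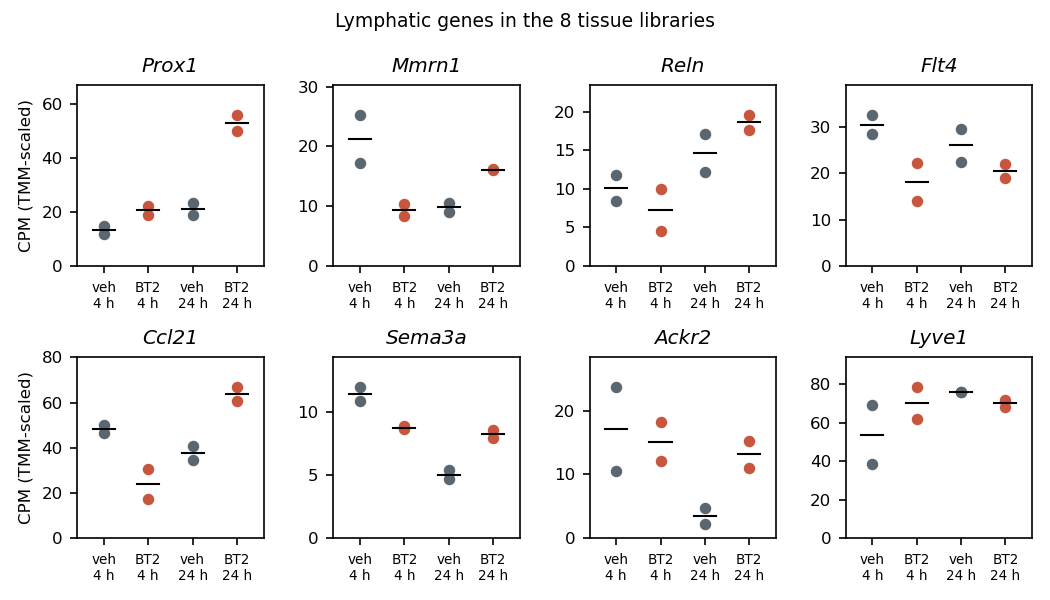
CPM with TMM scaling (y axis) of 8 lymphatic genes in the tissue libraries, as 1 point per library and a line at the mean of the 2 libraries, for vehicle and BT2 at 4 h and 24 h. Mmrn1 and Ccl21 lie lower with BT2 at 4 h and higher at 24 h, Prox1 is highest with BT2 at 24 h, and Lyve1 overlaps at 4 h and lies slightly lower with BT2 at 24 h.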

How the data were processed

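Single-nucleus and tissue RNA of the AAR of rat hearts were used. The authors deposited raw counts: UMI counts per gene and barcode for 39537 features, and read counts per gene for 8 tissue libraries. Per the submitters' processing notes, the tools were Trim Galore, STAR, featureCounts and, for nuclei, Cell Ranger, with the build Rnor_6.0. The file headers give Cell Ranger 8.0.1. Other versions and the strand setting of the counting were not given in the sources used here, so genes that overlap on opposite strands cannot be told apart.

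Members and gene lists were chosen with earlier results of these data known. Nuclei were taken by the stated rule, without clustering, and described with 25 gene lists (Python 3.11.15, pandas 2.3.3, scipy 1.17.1), and doublets were neither called nor removed. UMIs were summed per library and class, given as CPM, and compared as ratios with exact conditional binomial 95% intervals; shares have Clopper-Pearson intervals. Detection was compared after thinning to 1000 UMIs. Tissue counts were tested with edgeR 4.0.16 in R 4.3.3 (filterByExpr, TMM, robust quasi-likelihood, 4 group means over 8 libraries, two-sided, Benjamini-Hochberg adjusted p under 0.05), and DESeq2 1.42.0 was an alternative. The biological coefficient of variation was 14.3%. Both calculations were tested on simulated data.

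Named genes were the rule genes, list members with at least 20 UMIs, and genes with a proper symbol and the 10 largest or smallest ratios of BT2 over vehicle (at least 30 UMIs in the higher library) or the 20 largest and 10 smallest ratios to blood endothelial nuclei. Of 71 genes tied at 0 in members, the 10 with most blood endothelial UMIs were taken, a choice made after values were seen. The same rule was applied to members without cardiomyocyte-rich nuclei (Abcc9, Tmlhe, Ltbp1, Bmp6), a set chosen after values were seen. Sequences are RefSeq promoter windows on GRCr8.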

Additional observations from a re-analysis of the deposited data

Results flagged for a closer look

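In tissue, the BT2 effect at 24 h differed from that at 4 h in 6 of 25 lymphatic genes by a test of the difference itself in edgeR, against 1087 of 15216 genes (7.14%) overall. The difference (24 h minus 4 h effect, log2, ± SE) was 1.90 ± 0.28 for Mmrn1 (edgeR adjusted p = 0.0187), 1.77 ± 0.32 for Ccl21 (adjusted p = 0.0257) and 1.09 ± 0.23 for Sema3a (adjusted p = 0.0347). It was 2.0 ± 0.46 for Pkhd1l1 (edgeR adjusted p = 0.0418), -1.36 ± 0.20 for Maf (adjusted p = 0.0193) and -1.60 ± 0.37 for Mrc1 (adjusted p = 0.0456).

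Mmrn1 and Ccl21 lay below vehicle in both BT2 libraries at 4 h and above it in both at 24 h. In 8 fits without 1 library each, added after seeing the data, the difference of Mmrn1 ranged from 1.59 to 2.14 and passed in 4. That of Ccl21 ranged from 1.41 to 2.21 and passed in 4, and that of Maf from -1.50 to -1.21 and passed in 4. Mrc1 passed in 2, Pkhd1l1 and Sema3a in 1. Without vehicle replicate 1, vehicle replicate 2 or BT2 replicate 1 at 24 h, 0 of the 6 passed, and without BT2 replicate 2 at 24 h Sema3a was lost. At 4 h, Pkhd1l1 was lost in each of the 4 fits, and Mrc1 and Sema3a in each fit except that without vehicle replicate 1. Ccl21 was lost without vehicle replicate 2 at 4 h, and Mmrn1 and Maf without BT2 replicate 2 at 4 h. The direction was kept in all 8 fits for each of the 6 genes.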

How the results depend on the processing

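The depth of 113 and 116 nuclei limits every nuclear value, and 2 tissue libraries per group limit every call. Requiring 3 rule genes gave shares of 0.797% and 0.857%, requiring 0 UMIs of the barred genes 0.702% and 0.819%, and the endothelial denominator 5.24% and 5.99%. Counts of genes at least 2-fold higher and lower with BT2 were 542 and 723 from 10 UMIs, 59 and 57 from 50 UMIs and 88 and 118 after thinning. Ratios crossed 1 for Sorcs1 (0.573 from 3 rule UMIs, 0 with 3 rule genes, 0.518 with Prox1 not counted), Grik2 (1.05 with 6 rule UMIs, 1.34 with 3 rule genes), Parm1 (0.637 with 3 rule genes), Corin (2.69 with 3 rule genes, 2.59 with Prox1 not counted, 1.26 without cardiomyocyte-rich nuclei), Kcnd2 (0.925) and Clstn2 (1.29) with Prox1 not counted, and Selp (1.56 after thinning). The cause was not tested. Of the other ratios of BT2 over vehicle under alternatives, 493 kept within the counting interval and 70 moved.

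In tissue at 24 h, leaving out 1 library gave 2982 (without BT2 replicate 1) to 4558 calls and 6 to 8 lymphatic calls. At 4 h it gave 112 (without BT2 replicate 2) to 2796 (without vehicle replicate 1) and 0 to 5, and fitting the 4 h libraries alone 621 and 2. No lymphatic gene passed at 4 h without vehicle replicate 2, nor without BT2 replicate 2. With upper quartile scaling 1298 of 2542 calls at 4 h were higher, and DESeq2 called 5461 genes, 13 of them lymphatic, at 24 h and 2703, 6 of them lymphatic, at 4 h. With the replicate number as a block they were 5824 and 14 at 24 h and 2248 and 4 at 4 h. Under the block, Prox1 (edgeR adjusted p = 0.0568) and Pdpn (0.0713) were lost and Flt4 (0.0478) gained at 4 h, and Piezo2 (0.0374) gained at 24 h. The numbers do not pair the libraries: deviations of equal-numbered libraries correlated at -0.046 to 0.097.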

Other observations

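Fam111a, a gene of antiviral and replication-linked protease function, had 39 UMIs in 14 vehicle members and 2 UMIs in 2 BT2 members. Blood endothelial nuclei had 1188 and 14 UMIs of Fam111a, so the gap between the libraries is not particular to lymphatic nuclei.

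Abcc9 and Bmp6 had ratios of BT2 over vehicle of 2.75 and 2.68 in members and 1.94 and 2.001 in blood endothelial nuclei. Ltbp1, a latent TGF-beta binding protein, had 30 and 81 UMIs in 13 and 14 members (3.14), with 25 UMIs in 1 BT2 nucleus and a blood endothelial ratio of 1.03. Pex5l had 30 and 7 UMIs in members of the 2 libraries and 1 and 0 in blood endothelial nuclei.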
